A study of Mus musculus with 4 samples.

Results

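The cytosolic and mitochondrial heat shock chaperones examined here are 41 mouse genes chosen by name: the HSP70, HSP110, HSP90 and small heat shock proteins, J-domain proteins, their cochaperones, the mitochondrial chaperonin, heat shock factors and associated ubiquitin genes. A probe named for the gene was found for 40 of them, and all 40 were among the 24658 genes and transcripts tested, which needed a signal well above background on 2 or more arrays. Of the 40, 39 met this on all 4 arrays and Hsf2 on 3. Hspa1b had no probe of its own name.

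RNA was measured on 4 one-colour Agilent arrays in C3H10T1/2, an embryonic fibroblast line of the mouse in which carcinogens give rise to transformed foci. The DEM group (2 arrays, DEM 1 and DEM 2) was transformed C3H10T1/2 exposed to 0.25 mM diethyl maleate (DEM), an electrophile that conjugates with glutathione. The untreated group (2 arrays, untreated 1 and untreated 2) was transformed C3H10T1/2 without DEM. Cells of both groups had received 3-methylcholanthrene (3MC, 2.5 µg/ml for 2 days), then TPA, a phorbol ester, at 100 ng/ml over 2 weeks and 4 weeks of plain medium, and no untransformed cells were analysed here. How long the cells were exposed to DEM is not stated in the sources used here. Nothing in the labels says that 2 arrays of one group stand for different cultures, so the p-values rest on array-to-array spread that may be technical.

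Heat shock proteins hold unfolded proteins in a state from which they can refold, pass them to partner chaperones or hand them to degradation. HSP70 works in a cycle of ATP hydrolysis that J-domain proteins start and nucleotide exchange factors reset, HSP90 receives clients from HSP70 through adaptor proteins, small heat shock proteins bind unfolded proteins without ATP, and HSP60 with HSP10 encloses proteins inside mitochondria. Many of these genes are transcriptional targets of heat shock factor 1, which binds heat shock elements, runs of the letters GAA in alternating orientation.

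On the DEM arrays 49.2% and 47.8% of spots were well above background, against 52.3% and 52.7% on the untreated arrays, and spots at the 75th percentile had a signal of 449.9 and 412.5 on the DEM arrays, against 701.3 and 747.2 on the untreated arrays. All arrays lay on 1 slide and were scanned on 1 date, but the DEM arrays were in one row of the slide and the untreated arrays in the other, so position and group cannot be told apart. The correlation over genes was 0.984 between the DEM arrays and 0.987 between the untreated arrays, against 0.964 to 0.968 across groups. All 10 fibroblast markers were measured on 4 arrays. Of these, 5 (Col1a2, Pdgfra, Pdgfrb, Col3a1 and Dcn) were lower with DEM, against 11.8% of all genes tested. The other 5 did not pass the threshold. The summed marker signal, in multiples of the 75th percentile, was 870 and 1270 on the DEM arrays, against 1570 and 1630 on the untreated arrays. Bright markers weigh most in that sum. The brightest, S100a4, was 1.07 log2 units lower on DEM 1 than on DEM 2 and did not pass the threshold between groups (limma adjusted p = 0.267).

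Levels below are log2 signal minus the array's 75th percentile, so 0 is the level of that percentile and a difference of 1 is a doubling. Levels of different genes come from different probes and are not set against each other. A gene was called higher or lower where limma's p, adjusted over all genes tested, was under 0.05, and ± after a log2 change is its standard error (n = 2 arrays per group). Of the 40 measured chaperone genes, 22 were higher in DEM cells, which is 55.0%, against 15.5% of all genes tested. Another 3 were lower, against 11.8% of all genes, and 15 were not called. Both DEM arrays lay above both untreated arrays for 32 of the 40 genes (42.4% of all genes) and below them for 4 (26.0% of all genes). The median log2 change was 0.95 over the chaperone genes and 0.16 over all genes, and 19 of the 22 higher genes were at least 2-fold higher. In bulk RNA, fewer cells of a type and less RNA per cell cannot be told apart. Without DEM 1 the median log2 change was 0.79 over the chaperone genes and 0.18 over all genes. Without DEM 2 it was 1.08 and 0.14. Without untreated 1 it was 0.97 and 0.13, and without untreated 2 it was 0.97 and 0.18. Fewer genes were called in both fits without an untreated array, among the chaperone genes and among all genes. The counts are given near the end. With the arrays scaled to spike-in RNA, 3 chaperone genes were higher (7.5%, against 1.44% of all genes). Under that scaling 1 was lower, against 859 of the 24658 genes tested.

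**Figure D1:**
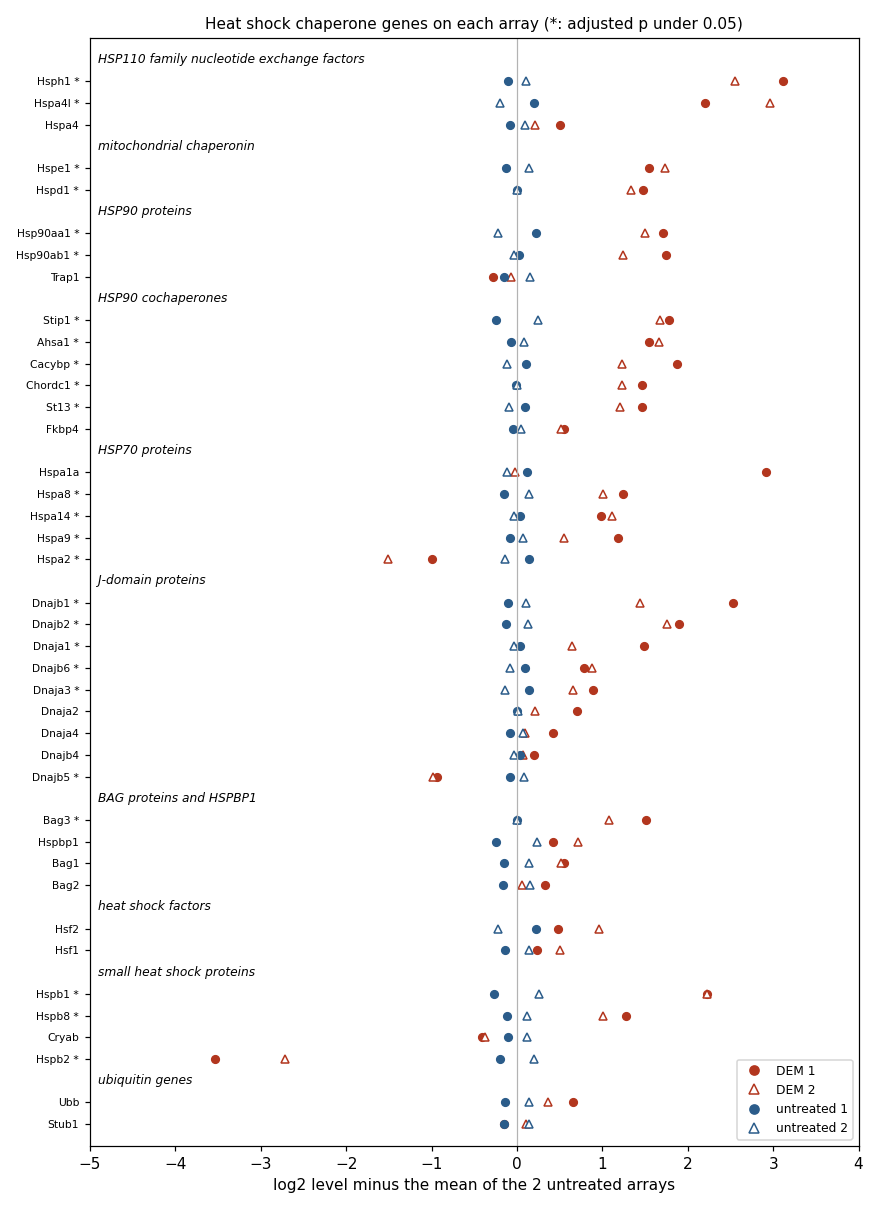
The level of each of the 40 measured chaperone genes on each array is plotted on a log2 scale as its difference from the mean of the 2 untreated arrays, with genes grouped by role. Red symbols are the DEM arrays, blue symbols the untreated arrays, filled circles replicate 1, open triangles replicate 2, and an asterisk marks a gene with a limma adjusted p under 0.05; red symbols of 32 genes lie to the right of both blue ones, and the 2 red symbols of Hspa1a lie apart from each other.

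Among HSP70 proteins, 3 of the 5 measured genes rose in DEM cells, by 1.82-fold to 2.19-fold, and 1 fell. Hspa8, the constitutive cytosolic HSP70, had levels of 8.20 and 7.97 on the DEM arrays, against 6.81 and 7.10 on the untreated arrays, a log2 change of 1.13 ± 0.16 (limma adjusted p = 0.0068). Hspa14, the HSP70-like subunit of the mammalian ribosome-associated complex, had 5.06 and 5.19 in DEM cells, against 4.12 and 4.04 in untreated cells (log2 change 1.04 ± 0.15, limma adjusted p = 0.00717). The groups did not overlap for either gene. Hspa9, the mitochondrial HSP70 that pulls imported proteins into the matrix, had 6.63 and 6.00 in DEM cells and 5.37 and 5.52 in untreated cells, a log2 change of 0.87 ± 0.23 (limma adjusted p = 0.0404). Its call was lost under quantile, cyclic loess, detected-probe and spike-in scaling, without the filter or the variance trend, and with the mean of its probes. Hspa2, an HSP70 best known for its role in male germ cells, went the other way, with -0.17 and -0.68 in DEM cells, against 0.97 and 0.69 in untreated cells. Its log2 change was -1.26 ± 0.25 (limma adjusted p = 0.0167), and its other probe changed by -1.41.

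Hspa1a, which encodes the stress-inducible HSP70, was high on one DEM array alone. Its brightest probe read 0.63 on DEM 1 and -2.31 on DEM 2, against -2.17 and -2.41 on the untreated arrays. DEM 2 thus lay between the untreated arrays, and the log2 change of 1.45 ± 0.87 was not called (limma adjusted p = 0.261). The other 3 Hspa1a probes were well above background on DEM 1 and on no other array. On DEM 1 they read -2.45, -3.66 and -1.96, and on DEM 2, where none was well above background, -6.43, -6.03 and -6.25. The brightest probe had 7.65 times the signal on DEM 1 that it had on DEM 2. The log2 change was 2.92 without DEM 2 (limma adjusted p = 0.000362) and -0.02 without DEM 1 (limma adjusted p = 0.965). Hspa1b encodes a near-identical HSP70 and is the neighbour of Hspa1a on chromosome 17, and 2 of the 4 probes list transcripts of both genes, so their signal cannot be assigned to one of them. Those 60-base probes are shown because the Hspa1a value rests on the first, which is the brightest. The other 2 probes list Hspa1a alone and share a run of 30 bases, so they do not sample separate stretches.
52_P52803: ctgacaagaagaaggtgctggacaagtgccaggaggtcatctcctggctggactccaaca
52_P304902: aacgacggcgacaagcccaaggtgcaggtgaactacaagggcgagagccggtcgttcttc

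**Figure D2:**
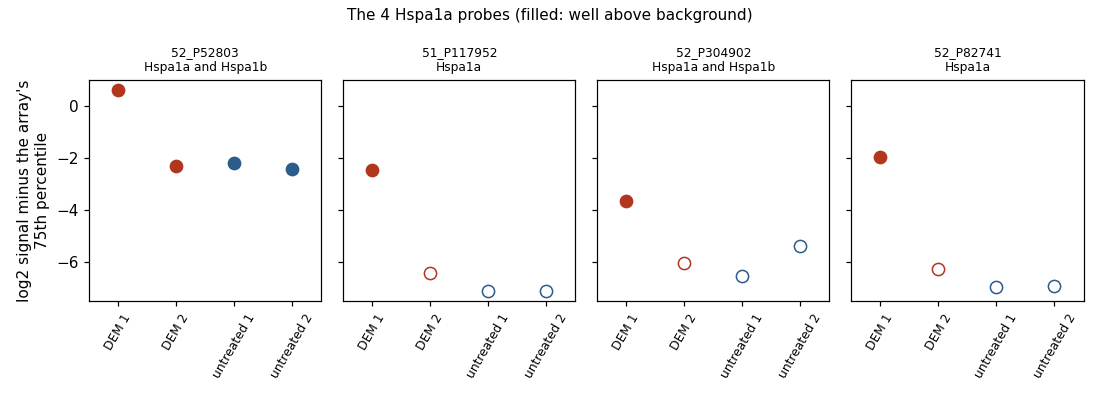
Each panel shows 1 of the 4 Hspa1a probes on the DEM arrays (red) and untreated arrays (blue), as log2 signal minus the array's 75th percentile, with the genes listed for the probe above it. Filled circles are well above background; on DEM 1 all 4 probes are, and on the other arrays only the first probe is.

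The HSP110 family, HSP70 relatives that act as nucleotide exchange factors, held the 2 chaperone genes with the highest log2 changes. Hsph1 (HSP105) had 6.90 and 6.34 in DEM cells, against 3.69 and 3.89 in untreated cells, and was 7.14-fold higher (log2 change 2.84 ± 0.22, limma adjusted p = 0.00132). Hspa4l (APG-1) had 2.93 and 3.69 in DEM cells, against 0.93 and 0.53 in untreated cells, and was 5.97-fold higher (log2 change 2.58 ± 0.30, limma adjusted p = 0.00364). Every DEM value of both genes lay at least 2 log2 units above the untreated mean, and the other 2 Hspa4l probes changed by 1.97 and 2.46. Hspa4 (APG-2), the third family member, had 3.66 and 3.37 in DEM cells and 3.08 and 3.25 in untreated cells and was not called (log2 change 0.35 ± 0.19, limma adjusted p = 0.207).

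Of 9 genes for J-domain proteins, which deliver clients to HSP70 and start its ATPase, 5 rose, 1 fell and 3 were not called. With the mean of each gene's probes, however, the calls of Dnaja1, Dnaja3 and Dnajb6 were lost (log2 changes 0.17, 0.59 and 0.25, limma adjusted p = 0.603, 0.116 and 0.412). Dnajb1 (HSP40) had 7.78 and 6.69 in DEM cells, against 5.15 and 5.36 in untreated cells, a log2 change of 1.98 ± 0.35 (limma adjusted p = 0.0116), and its other probe changed by 2.47. Dnajb2, a J-domain protein with ubiquitin-binding motifs, had 4.41 and 4.27 in DEM cells, against 2.38 and 2.64 in untreated cells (log2 change 1.83 ± 0.18, limma adjusted p = 0.00239). The DEM arrays differed by 1.09 for Dnajb1 and by 0.14 for Dnajb2. Dnaja3, a mitochondrial partner of Hspa9, had 2.98 and 2.75 in DEM cells, against 2.23 and 1.95 in untreated cells (log2 change 0.78 ± 0.19, limma adjusted p = 0.032). For Dnaja1, a main cytosolic partner of HSP70, the brightest probe had 6.33 and 5.48 in DEM cells, against 4.87 and 4.81 in untreated cells (log2 change 1.06 ± 0.28, limma adjusted p = 0.0393), while its other 2 probes changed by -0.19 and -0.38. For Dnajb6, which keeps aggregation-prone proteins soluble, the brightest probe had 3.81 and 3.90 in DEM cells, against 3.11 and 2.94 in untreated cells (log2 change 0.83 ± 0.17, limma adjusted p = 0.0167), while its other 2 probes changed by -0.15 and 0.08. The probes of these 2 genes therefore disagreed in direction, the only such disagreement among the 20 chaperone genes with several probes well above background on at least 2 arrays. Dnajb5 fell, with -2.80 and -2.84 in DEM cells, against -1.94 and -1.78 in untreated cells (log2 change -0.96 ± 0.24, limma adjusted p = 0.0312), and its other 2 probes were not well above background on either DEM array. With normexp background correction its change was -0.41 and the call was lost (limma adjusted p = 0.0643). Dnaja2, Dnaja4 and Dnajb4 had log2 changes of 0.45, 0.26 and 0.14 and were not called, and Dnajb4 changed by -0.02 to -0.09 under 5 other ways of correcting or scaling the arrays.

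Both cytosolic HSP90 genes rose, by 3.04-fold and 2.81-fold, and the mitochondrial one was not called. Hsp90aa1, the stress-inducible HSP90, had 8.21 and 8.00 in DEM cells, against 6.72 and 6.28 in untreated cells (log2 change 1.60 ± 0.19, limma adjusted p = 0.00384). Hsp90ab1, its constitutive counterpart, had 8.36 and 7.86 in DEM cells, against 6.64 and 6.59 in untreated cells (log2 change 1.49 ± 0.19, limma adjusted p = 0.0049). The groups were apart for both genes, and the other Hsp90ab1 probe changed by 1.11. Trap1, the HSP90 of mitochondria, had 1.95 and 2.16 in DEM cells and 2.08 and 2.38 in untreated cells; these values overlapped and the log2 change of -0.18 ± 0.20 was not called (limma adjusted p = 0.533).

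Of 6 genes for proteins that work with HSP90 or link it to HSP70, 5 rose, by 2.51-fold to 3.30-fold. Stip1 (HOP), which bridges HSP70 and HSP90, had 4.70 and 4.59 in DEM cells, against 2.68 and 3.17 in untreated cells (log2 change 1.72 ± 0.21, limma adjusted p = 0.00418). Ahsa1 (AHA1), the activator of the HSP90 ATPase, had 6.81 and 6.93 in DEM cells, against 5.20 and 5.35 in untreated cells (log2 change 1.60 ± 0.15, limma adjusted p = 0.00206). In both genes the DEM arrays differed by no more than 0.13. Cacybp, the calcyclin-binding protein, had 6.32 and 5.68 in DEM cells, against 4.56 and 4.33 in untreated cells (log2 change 1.55 ± 0.24, limma adjusted p = 0.00832). Chordc1, a zinc-binding HSP90 partner, had 3.36 and 3.13 in DEM cells, against 1.89 and 1.90 in untreated cells (log2 change 1.35 ± 0.18, limma adjusted p = 0.00503), and its other probe changed by 1.31. St13 (HIP), which binds HSP70 and slows its release of ADP, had 6.17 and 5.92 in DEM cells, against 4.80 and 4.62 in untreated cells (log2 change 1.33 ± 0.17, limma adjusted p = 0.00458). Fkbp4 (FKBP52), an immunophilin of steroid receptor complexes, had 1.85 and 1.82 in DEM cells and 1.25 and 1.35 in untreated cells, a log2 change of 0.53 ± 0.17 that was not called (limma adjusted p = 0.0689). Its second probe changed by 0.97, and the gene was called higher with the mean of both probes (log2 change 0.75, limma adjusted p = 0.03) and without the filter on dim probes (limma adjusted p = 0.0249).

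The genes of both subunits of the mitochondrial chaperonin rose. Hspe1 (HSP10), the lid of the folding chamber, had 5.44 and 5.62 in DEM cells, against 3.76 and 4.03 in untreated cells (log2 change 1.64 ± 0.17, limma adjusted p = 0.00288). Hspd1 (HSP60), the chamber itself, had 6.92 and 6.77 in DEM cells, against 5.44 and 5.44 in untreated cells (log2 change 1.40 ± 0.14, limma adjusted p = 0.00262). The other Hspd1 probe changed by 1.25. The genes are neighbours on chromosome 1 on opposite strands, and the annotated Hspe1 start site lies 216 bases from one of those of Hspd1.

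The small heat shock protein genes moved in both directions. Hspb1 (HSP25 in the mouse, HSP27 in humans), an ATP-independent holdase, had 6.58 on both DEM arrays, against 4.08 and 4.61 on the untreated arrays, and was 4.71-fold higher (log2 change 2.24 ± 0.21, limma adjusted p = 0.00206). Hspb8, which acts with Bag3 in selective autophagy of damaged proteins, had 4.80 and 4.53 in DEM cells, against 3.40 and 3.64 in untreated cells (log2 change 1.15 ± 0.18, limma adjusted p = 0.00883). Both genes were thus separated between the groups. Hspb2, a small heat shock protein known from heart and skeletal muscle, had -3.35 and -2.52 in DEM cells, against -0.01 and 0.39 in untreated cells, and fell to 11.4% of its untreated level (log2 change -3.13 ± 0.34, limma adjusted p = 0.00306). It had the most negative log2 change of the 40 genes, and it was called lower under all alternatives tried, with a smaller change of -2.19 under normexp background correction; its second probe was not well above background on any array. Cryab (alpha B-crystallin), its neighbour on chromosome 9 and also strongly expressed in muscle, had 3.66 and 3.70 in DEM cells, against 3.96 and 4.19 in untreated cells. Its log2 change of -0.40 ± 0.17 was not called (limma adjusted p = 0.131), although the groups did not overlap and its second probe changed by -1.02. Quantile normalization, cyclic loess and the mean of both probes each called it lower.

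Of the 5 skeletal muscle markers listed, Actc1, the cardiac alpha-actin also made in developing skeletal muscle, was the only one measured, and it fell alongside Hspb2. It had 1.16 and 1.43 in DEM cells, against 4.88 and 5.20 in untreated cells (log2 change -3.75 ± 0.20, limma adjusted p = 0.00065). The summed signal of the list is therefore that of Actc1 alone. In multiples of the 75th percentile it was 2.23 and 2.69 on the DEM arrays, against 29.5 and 36.8 on the untreated arrays. Myod1, Myog, Myf5 and Ckm did not pass the filter for dim probes. The part of these markers in the Hspb2 result was not tested.

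Among nucleotide exchange factors of the BAG and HSPBP1 type, 1 of 4 genes rose. Bag3, which couples HSP70 to Hspb8 and to autophagy, had 5.31 and 4.88 in DEM cells, against 3.80 on both untreated arrays (log2 change 1.29 ± 0.19, limma adjusted p = 0.00717). Hspbp1, Bag1 and Bag2 had log2 changes of 0.57, 0.54 and 0.20, with limma adjusted p = 0.122, 0.0723 and 0.508, and were not called, although Bag1 was called higher without the filter on dim probes. Ubb, a polyubiquitin gene, had 8.76 and 8.46 in DEM cells and 7.96 and 8.24 in untreated cells (log2 change 0.51 ± 0.17, limma adjusted p = 0.0716). Stub1 (CHIP), the ubiquitin ligase that marks chaperone clients, had 4.56 and 4.81 in DEM cells and 4.56 and 4.85 in untreated cells. The Stub1 values of the groups overlapped, and its log2 change was -0.02 ± 0.18 (limma adjusted p = 0.938).

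Neither heat shock factor gene was called. Hsf1, the main transcription factor of the heat shock response, which is controlled largely after translation, had 3.39 and 3.65 in DEM cells and 3.01 and 3.29 in untreated cells (log2 change 0.37 ± 0.19, limma adjusted p = 0.199). Hsf2, its partner and relative, had -4.11 and -3.63 in DEM cells and -4.37 and -4.81 in untreated cells (log2 change 0.72 ± 0.36, limma adjusted p = 0.192). Its signal was well above background on only 1 of the 2 untreated arrays, and under normexp background correction it was called higher.

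By the brightest probe of each gene, the DEM arrays differed from each other more in some chaperone genes than in others. DEM 1 was above DEM 2 for 27 of the 40 genes, against 46.7% of all genes, with a median difference of 0.18 over the chaperone genes and -0.03 over all genes. The untreated arrays had a median difference, replicate 1 minus replicate 2, of -0.15 over the chaperone genes and -0.04 over all genes. For 8 of the 40 genes DEM 1 exceeded DEM 2 by over 0.5, against 14.3% of all genes. These were Hspa1a (2.94), Dnajb1 (1.09), Dnaja1 (0.85), Hspa9 and Cacybp (0.64 each), Hsph1 (0.56), Hspa2 (0.51) and Hsp90ab1. The Hsp90ab1 difference was over 0.5 before rounding and rounds to 0.50. The Hspa1a difference ranked 43 among 24658 genes. Hspb2 and Hspa4l differed by over 0.5 in the opposite direction, with -0.83 and -0.76.

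**Figure D3:**
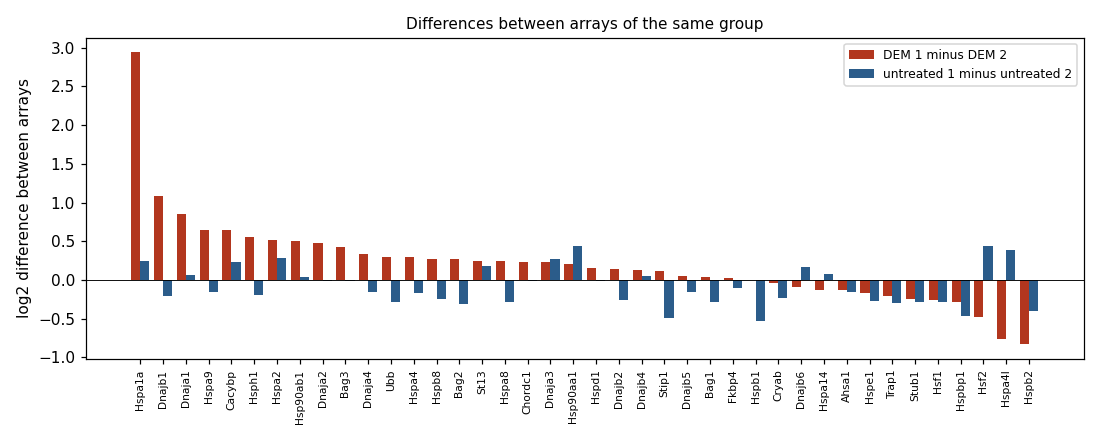
Bars give, for each chaperone gene, the log2 difference DEM 1 minus DEM 2 (red) and untreated 1 minus untreated 2 (blue), ordered by the red bar. Hspa1a stands at 2.94 and Dnajb1 at 1.09, and 13 of the 40 red bars are below 0.

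Promoter windows from RefSeq (build GRCm38.p6, 250 bases before to 50 after an annotated start site) were found for 33 of the 41 genes, in 45 windows. They were searched for 2 adjoining heat shock units, GAANNTTC or TTCNNGAA, and for 3 units, GAANNTTCNNGAA or TTCNNGAANNTTC. The 2-unit motifs read the same on both strands, the 3-unit motifs are each other's reverse complement, and each 3-unit match also holds 2-unit matches. The 2-unit motifs were in 17 of the 45 windows (37.8%), against 15.1% of all 32851 windows, and the 3-unit motifs in 7 of the 45 (15.6%), against 0.603% of all windows. Those 7 windows belong to Hsph1, Hspe1, Hspd1, Chordc1 and Dnajb6, all higher in DEM cells (Dnajb6 by the brightest of its 3 probes), and none of the 20 windows of the 15 other measured genes held 3 units. The 2-unit motifs were in windows of 9 of the 17 higher genes and of 5 of the 15 others. The other 8 higher genes, Hspa4l, Dnajb1, Dnajb2, Stip1, Ahsa1, Cacybp, Hspa14 and Dnaja3, held no match of either kind. A match to these letters is a description, not a bound site, and windows of 1 gene can overlap. The 7 windows with 3 units are not separate. Hspd1 and Hspe1 share a run, and the overlapping windows of Hsph1 repeat the same match, as do those of Dnajb6. No window was in the table for Hspa8, Hspa9, Hsp90aa1, Hsp90ab1, St13, Hspb2, Cryab and Hsf1.

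The windows of higher genes that held a match are shown for 5 genes, so that the motifs can be read beside the changes given above. They lie at chr5:149636287-149636586 on the minus strand for Hsph1, chr5:135887669-135887968 on the plus strand for Hspb1, chr1:55087898-55088197 on the plus strand for Hspe1, chr9:18292017-18292316 on the plus strand for Chordc1 and chr7:128523333-128523632 on the plus strand for Bag3. Capitals mark the matched units, and each sequence runs 5′ to 3′ with the start site 250 bases from its left end. The Hspd1 window at chr1:55087883-55088182 on the minus strand shares 285 bases with that of Hspe1, so both hold the same run of 4 units.
Hsph1: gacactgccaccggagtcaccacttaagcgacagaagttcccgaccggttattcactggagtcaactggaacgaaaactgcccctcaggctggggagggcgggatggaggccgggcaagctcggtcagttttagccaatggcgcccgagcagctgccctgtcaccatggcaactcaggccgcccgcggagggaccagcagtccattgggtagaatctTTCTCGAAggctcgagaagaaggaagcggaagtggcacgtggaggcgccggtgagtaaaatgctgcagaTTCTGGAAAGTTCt
Hspb1: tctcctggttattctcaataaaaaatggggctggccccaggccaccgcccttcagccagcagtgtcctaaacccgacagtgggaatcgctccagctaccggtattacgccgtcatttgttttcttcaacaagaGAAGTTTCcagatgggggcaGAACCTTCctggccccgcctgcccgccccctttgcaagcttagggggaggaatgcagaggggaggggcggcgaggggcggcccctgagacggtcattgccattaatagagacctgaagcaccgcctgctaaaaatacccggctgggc
Hspe1: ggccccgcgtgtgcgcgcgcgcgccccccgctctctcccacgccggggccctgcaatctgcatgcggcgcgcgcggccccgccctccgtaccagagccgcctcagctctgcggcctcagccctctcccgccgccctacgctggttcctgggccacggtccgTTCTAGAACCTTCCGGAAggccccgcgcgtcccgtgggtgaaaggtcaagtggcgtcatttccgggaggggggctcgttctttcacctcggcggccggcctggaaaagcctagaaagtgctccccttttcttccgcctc
Chordc1: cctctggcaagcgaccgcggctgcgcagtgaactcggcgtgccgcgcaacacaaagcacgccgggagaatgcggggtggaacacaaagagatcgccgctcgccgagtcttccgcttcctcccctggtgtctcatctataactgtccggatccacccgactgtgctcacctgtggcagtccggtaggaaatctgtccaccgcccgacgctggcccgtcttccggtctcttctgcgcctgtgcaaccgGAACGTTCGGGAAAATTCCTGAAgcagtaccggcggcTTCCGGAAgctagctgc
Bag3: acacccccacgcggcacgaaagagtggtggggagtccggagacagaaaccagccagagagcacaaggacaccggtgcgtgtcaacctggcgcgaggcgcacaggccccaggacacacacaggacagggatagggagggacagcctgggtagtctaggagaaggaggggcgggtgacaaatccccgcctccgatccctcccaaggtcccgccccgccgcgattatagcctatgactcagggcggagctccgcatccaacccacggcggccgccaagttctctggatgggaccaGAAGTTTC

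In the Hspe1 window the run begins 89 bases before the start site, and counted from the Hspd1 start site of its window it begins 144 bases before. Chordc1, which rose 2.54-fold, holds a run that begins 4 bases before the start site and crosses it. Hsph1, which had the highest log2 change, holds a 3-unit match that begins 36 bases after this start site and a 2-unit match 33 bases before it. Hspb1 has separate 2-unit matches that begin 117 and 97 bases before the start, and Bag3 has one that begins 42 bases after it. Hspa1a and Hspa1b each have a 2-unit match that begins 104 bases before the start, and among genes that were not called Fkbp4, Dnaja4, Dnajb4 and Stub1 also hold 2-unit matches.

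**Figure D4:**
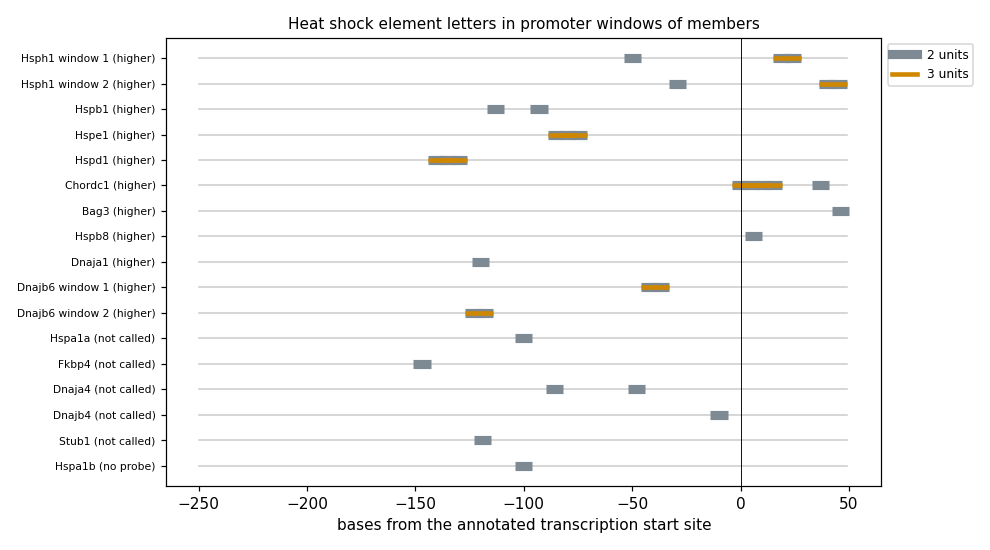
Each line is a RefSeq promoter window that held a match, drawn by distance in bases from the annotated start site, with grey blocks for 2-unit and orange lines for 3-unit matches. The gene's call in DEM against untreated cells is in brackets. All 7 windows with 3 units belong to genes that were higher (Dnajb6 by its brightest probe), but some of these windows overlap and show the same match.

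Other genes of the protein folding network, a list of 91 named genes that excludes the 41 above, were counted in the same fit. Of 76 measured, 25 rose (32.9%, against 15.5% of all genes), 6 were lower (against 11.8% of all genes) and 45 were not called, with a median log2 change of 0.32. Hsf5, one of the 6, was well above background on the untreated arrays alone and so could only be lower; requiring all 4 arrays left 5 lower of 75. The count of 25 higher was 14 with quantile normalization (18.4%, against 11.6% of all genes) and 12 with cyclic loess (15.8%, against 10.3% of all genes). It was 14 with the percentile over detected probes (18.4%, against 10.5%) and 13 with no variance trend (17.1%, against 11.4%). With normexp 32.9% were higher, against 26.2% of all genes. Without the filter on dim probes 38.2% were higher, against 34.8% of all genes. Hspbap1, which encodes an HSPB1-associated protein, had 3.62 and 3.57 in DEM cells, against 1.55 and 1.07 in untreated cells (log2 change 2.29 ± 0.22, limma adjusted p = 0.0022). Dnajc2, the J-domain partner of Hspa14 in the ribosome-associated complex, had 2.72 and 2.89 in DEM cells, against 0.88 and 0.90 in untreated cells (log2 change 1.92 ± 0.18, limma adjusted p = 0.00206). RNA for both subunits of that complex was thus higher. Ptges3 (p23), which stabilises the closed form of HSP90, had 5.68 and 5.06 in DEM cells, against 3.81 and 3.42 in untreated cells (log2 change 1.75 ± 0.26, limma adjusted p = 0.00692). With spike-in scaling 0 of the 76 were higher, against 1.44% of all genes, and 2 were lower, against 859 of the 24658 genes tested. Leaving out untreated 1 or untreated 2 lowered the count of higher genes, in this list and over all genes, and those counts are given near the end.

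Among the network genes that fell, Dnajc12, a J-domain protein that assists aromatic amino acid hydroxylases, had -3.37 and -2.70 in DEM cells, against -0.24 and -0.14 in untreated cells (log2 change -2.84 ± 0.29, limma adjusted p = 0.00257), and changed by -1.88 under normexp. Hspb6 (HSP20), another small heat shock protein found in muscle, had -2.47 on both DEM arrays, against -1.40 and -0.87 on the untreated arrays (log2 change -1.33 ± 0.26, limma adjusted p = 0.017). Dnajc27, a J-domain protein with a Rab-type GTPase domain, had -1.41 and -1.65 in DEM cells, against -0.45 and -0.05 in untreated cells (log2 change -1.28 ± 0.24, limma adjusted p = 0.014). The groups were apart for these 3 genes.

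The cytosolic chaperonin CCT, which folds actin and tubulin, had 4 of 8 subunit genes higher (Cct7, Cct8, Cct5 and Cct2). Their log2 changes were 0.60 to 1.06, and none was lower. The Cct2 call held under 6 of 16 alternatives, and its change was 0.28 with cyclic loess (limma adjusted p = 0.238). Prefoldin, which passes nascent actin and tubulin to CCT, had 1 of 6 subunit genes higher, Pfdn6 with 0.70. The Pfdn6 call held under 8 of 16 alternatives. Among others, it was lost with quantile normalization, cyclic loess, detected-probe scaling and no variance trend (limma adjusted p = 0.0724, 0.0742, 0.0613 and 0.0624). Of the 11 other mitochondrial folding and quality control genes, 5 were higher (Clpp, Lonp1, Afg3l2, Grpel1 and Htra2), by 0.66 to 1.11 on the log2 scale. Of the 14 other HSP90 cochaperone genes 6 were higher, and of the 25 other measured J-domain genes 8 were higher and 4 lower. None of the 3 other BAG genes or of the 2 other HSP70 family genes measured was called.

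Scaling moved the chaperone genes and all genes together. The median of all genes was 0.16 with the 75th percentile as reported, and 0.07 with quantile normalization, 0.01 with cyclic loess and 0.00 with the percentile over detected probes or with spike-in RNA. The median of the chaperone genes exceeded that of all genes by 0.79 as reported and by 0.67, 0.70, 0.79 and 0.79 under those 4 scalings. The excess was 0.62 with normexp, 0.65 with the mean of each gene's probes and 0.48 without the filter on dim probes. With normexp 57.5% of the chaperone genes were higher, against 26.2% of all genes. Without the filter 55.0% were, against 34.8%. Quantile normalization, cyclic loess and the percentile over detected probes each called 19 chaperone genes higher, having lost Dnaja1, Dnaja3 and Hspa9. Spike-in scaling called Hsph1, Hspa4l and Hspb1 higher and Hspb2 lower; the percentile minus the spike-in level differed by 0.92 between the DEM arrays and by 0.65 between the untreated arrays.

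**Figure D5:**
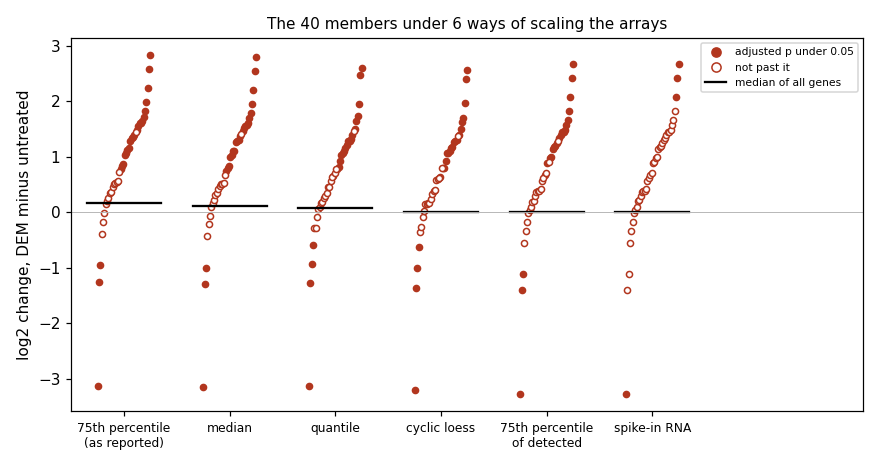
Points are the log2 changes, DEM minus untreated, of the 40 measured chaperone genes under 6 scalings, sorted within each, with filled points past an adjusted p of 0.05 and black lines at the median of all genes. The black line lies between 0.00 and 0.16, and the filled points are fewest with spike-in RNA, where 3 lie above 0 and 1 below.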

How the data were processed

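The deposited spot intensity values are, per the file headers, output of Agilent Feature Extraction version 10.7.3.1 under protocol GE1_107_Sep09, with background subtracted and detrended and surrogates in place of low signals. The deposited series table holds log2 values (medians -4.30 and -4.36 for DEM, -4.40 and -4.36 for untreated). They were compared with log2 processed signal minus the array's 75th percentile, after the median difference of each array was taken out. Over 4 arrays at least 99.97% of probes then lay within 0.01, a check that allows any constant offset per array. RNA (500 ng) was labelled with Cy3, per the labels' protocols.

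Of 62976 spots per array, 1319 controls were dropped, as were 13 to 68 spots marked as outliers (150 probes), and 0 were saturated. From log2 signal the 75th percentile of the array's non-control probes was taken away. The filter kept 31771 of 61177 probes, those that the software marked as well above background (multiplier 13) on 2 or more arrays, and the brightest stood for its gene, giving 24658 genes. Names came from the files, updated through the RefSeq table of GRCm38.p6 by accession (28136 probes), symbol (4982) or synonym (1406), and 26783 probes kept the file's name. The array design names build mm9, and probe coordinates were not used. DEM was compared with untreated by limma (version 3.58.1, R 4.3.3) with lmFit and eBayes under an intensity trend, with 2 degrees of freedom left for the residual and 4.03 from the prior. The two-sided p-values were adjusted by Benjamini-Hochberg across the genes tested. The script was tested on simulated data. Figures used matplotlib 3.10.9. The number of arrays limits the precision.

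The genes and lists were chosen with earlier results of these data known. All genes of the main list are accounted for, and of the wider list the 3 called genes with the highest and the 3 with the lowest log2 change that were well above background on 4 arrays are given with their values, plus the called CCT and prefoldin genes. Fibroblast, muscle, epithelial, macrophage, endothelial and adipocyte markers were checked. Alternatives were normexp (offset 50), quantile, cyclic loess, median, detected-probe and spike-in (7 probes) scaling, the authors' deposited values, no filter or a filter for 4 arrays, the mean of a gene's probes, no variance trend, the replicate block and each array left out. Replicate numbers were not taken to pair the arrays: with 2 pairs, the deviations of same-numbered arrays correlated at 0.0844 over genes.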

Additional observations from a re-analysis of the deposited data

How the results depend on the processing

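As reported, 3812 genes were higher and 2900 lower, with 22 and 3 among the chaperone genes and 25 and 6 in the wider network. Over all genes the count of higher genes was 6465 with normexp, 2529 with cyclic loess, 354 with spike-in scaling and 17297 of 49739 with no filter on dim probes, and spike-in scaling gave 859 lower. With 1 array left out, the count of higher genes was 644 to 4488 and of lower genes 802 to 3814. For the chaperone genes it was 11 to 25 higher and 1 to 3 lower, and for the wider network 4 to 25 higher and 1 to 7 lower. There the spread comes from the complete pair, and the lone array is assumed to vary like it. Spike-in scaling left 3 chaperone genes higher and 1 lower, and 0 wider genes higher and 2 lower; the wider higher count was 14 with quantile normalization or the percentile over detected probes, 12 with cyclic loess and 13 with no variance trend. Dnajb4 turned to -0.04 with normexp, -0.08 with quantile normalization, -0.09 with cyclic loess, and -0.02 with the percentile over detected probes and with spike-in scaling. Leaving out an array gave Hspa1a -0.02 to 2.92 and Stub1 -0.17 to 0.12. In these cases the cause was not tested. The share of higher among called genes was 56.8% as reported, 46.6% with quantile normalization, 40.9% with cyclic loess, 42.1% with the percentile over detected probes, 29.2% with spike-in scaling, 70.1% with normexp and 84.7% without the filter. Called higher in each of the 11 other settings on 4 arrays, spike-in scaling apart, were 18 chaperone genes, and in each of the 4 fits with an array left out 10 were (Ahsa1, Dnajb2, Hsp90aa1, Hsp90ab1, Hspa4l, Hspb1, Hspd1, Hspe1, Hsph1 and Stip1). Hspb2 was lower in all of these. With the replicate block the counts were 4473 and 3378 over all genes, 23 and 3 over the chaperone genes (Ubb added) and 27 and 7 in the wider network. A slide or scan block could not be fitted, since all arrays shared 1 slide and 1 scan date. Dim probes limit Hsf2 and 3 of the 4 Hspa1a probes, whose signal was near background outside DEM 1.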

Other observations

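Markers of other cell types were measured in part. Of 5 epithelial markers 2 were measured, with summed signals, in multiples of the 75th percentile, of 0.229 and 0.144 on the DEM arrays, against 0.148 and 0.21 on the untreated arrays, and neither was called. Of 5 macrophage markers 2 were measured, with summed signals of 0.351 and 0.353 on the DEM arrays, against 0.536 and 0.53 on the untreated arrays, and 1 was lower. Of 4 endothelial markers 1, Tek, passed the filter, through the untreated arrays alone: it was not well above background on either DEM array, so no level or call is given for it. Of 4 adipocyte markers 2 were measured, with summed signals of 9.03 and 10.5 on the DEM arrays, against 12.9 and 11.3 on the untreated arrays, and 1 was lower.

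The chaperone genes had further probes beside the brightest. Of 70 probes for the 40 genes, 65 were well above background on at least 2 arrays, and 18 of the 20 genes with several such probes had all of them changed in the same direction. Dnajb5 is among the 18, but its further probes passed the filter through the untreated arrays alone and so could only be lower. The share of agreeing probes over all genes was not counted. For Hspa8, chosen after its values were seen, the second probe read 6.76 on DEM 1 and 5.59 on DEM 2, against 5.19 and 5.40 on the untreated arrays, so its DEM arrays differed by 1.17, while those of the brightest probe differed by 0.24. Hspa8 was not alone in this. Further probes also showed a larger DEM 1 minus DEM 2 for Chordc1, Cryab, Dnaja3, Dnajb1, Dnajb4, Dnajb6, Hsf2, Hsp90ab1, Hspa2, Hspa9, Hspd1 and St13. Examples are St13 (0.97, against 0.25), Dnajb4 (0.83, against 0.13) and Hspd1 (0.55, against 0.16). The difference was smaller or more negative for Dnaja1 (0.30 and 0.34, against 0.85), Dnajb5, Fkbp4, Hsf1, Hspa4, Hspa4l and Hspbp1.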
